A study of Mus musculus with 8 samples.

Results

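The guidance genes described here are the Eph receptors and their ephrin ligands, the semaphorins with their plexin and neuropilin receptors, the Slits with their Robo receptors, and the netrins with their receptors Dcc and Unc5. Members were all probes whose platform symbol belongs to 1 of these families, which gave 94 of 38467 probes and 60 of 15123 named genes. Of the 60 genes, 32 had 1 probe, 22 had 2 and 6 had 3. Ephb3 was among them with 1 probe. The annotation used here names no probe Ephb2, so Ephb2 was not analysed here, and the same holds for Efna3, Ntn5, Plxnb2, Plxnd1, Robo3, Sema3g, Sema4c and Slit3.

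Guidance molecules were first known from growing axons, where membrane-bound or secreted ligands attract or repel the growth cone. Eph receptors and ephrins are both membrane proteins, and contact between cells that carry them can signal in either cell. In the intestinal epithelium EphB2 and EphB3 are known as targets of Wnt signalling that are high near the base of the crypt. There they oppose the ephrin-B ligands of cells further up, and in mice EphB3 is known for keeping Paneth cells at the crypt base. Many of the other families also act outside neurons, in vessels, mesenchyme and the enteric nervous system.

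The tissue was ileum of mouse embryos that lack LGR5 on both alleles (LGR5-/-), set against ileum of LGR5+/+ embryos, at stage E18.5 per the labels. The embryos came from LGR5+/- parents, 3 couples for 4 pairs, while strain, sex and the exact deletion are not stated in the labels. Each pair was hybridised on 2 long-probe arrays, with the null sample in Cy5 on 1 and in Cy3 on the other. The deposited values were 1 log ratio per probe and array, taken as log2.

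Values below are log2 ratios of LGR5-null over wild type, averaged over the 2 arrays of a pair, and means are given ± SD over 4 pairs. The deposited values carry no stated numerator. Lgr5, the deleted gene, lay below 0 on all 8 arrays (-1.61, -0.92, -1.92 and -1.93 in pairs 1 to 4), so null over wild type is the likely direction, and every sign below rests on that probe. Array medians ran from -0.002 to 0.002, and the 2 arrays of a pair correlated over all probes at r = 0.309 to 0.779. The pairs were uneven in genes outside the guidance families. Pair 1 held Hoxd10, a gene of posterior body levels, at -3.81 and the Y-linked Eif2s3y at -4.56, and pair 3 held the medians of the liver, pancreas and erythroid lists at 1.95, 1.68 and 1.53. Ratios give no level, so which members the ileum expressed, and whether the tissue label matches its markers, could not be read from these arrays.

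Between null and wild-type ileum, no guidance probe reached significance over all probes, and the members that stood out lay below 0. By limma with Benjamini-Hochberg adjustment over 36591 probes, 0 of 94 members fell under 0.05, as did 0% of all probes, and the lowest member value was 0.723. Without adjustment, 17 member probes had p under 0.05, against 5.47% of all probes. Of these, 16 were lower in null ileum (17% of the members, against 3.15% of all probes and 3.61% of the probes with a gene name), and they belong to 12 genes. The other 1 was higher (1.06%, against 2.33%). The 17 became 11 without pair 3, 10 with pairs 2 and 4 alone, and 17 without pair 1, of which 15 were lower. Over all 36591 probes the 2003 at that level became 1587, 1630 and 2049 in these settings. With probes of a gene averaged, 11 of 60 genes were lower and 1 was higher at an unadjusted p under 0.05, against 3.68% and 2.64% of all genes. These counts were not tested as a list, and several probes share a gene.

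The signs and sizes of the ratios leaned the same way. They come from the same pair values as the unadjusted p, so they are not separate evidence. A ratio below 0 in all 4 pairs was found for 21 member probes, or 22.3%, against 7.44% of all probes. A ratio above 0 in all 4 pairs was found for 3, or 3.19%, against 7% of all. On all 8 arrays 9 member probes were below 0, against 1.77% of all probes, and 0 were above 0, against 1.25%. Most member means nonetheless lay near 0. Of the 94 means 58 were below 0, or 61.7%, against 49.4% of all probes, and 60 were within 0.1 of 0, and the median was -0.027, against 0.00088 over all probes. The median over members was -0.021, -0.037, -0.040 and -0.0065 in pairs 1 to 4, with members on both sides of 0 in each. Within single pairs, 56, 29, 41 and 45 of the 94 lay more than 0.1 from 0 in pairs 1 to 4. How many of all probes lay within or beyond 0.1 was not counted, so these counts do not set the members apart from other probes.

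**Figure D1:**
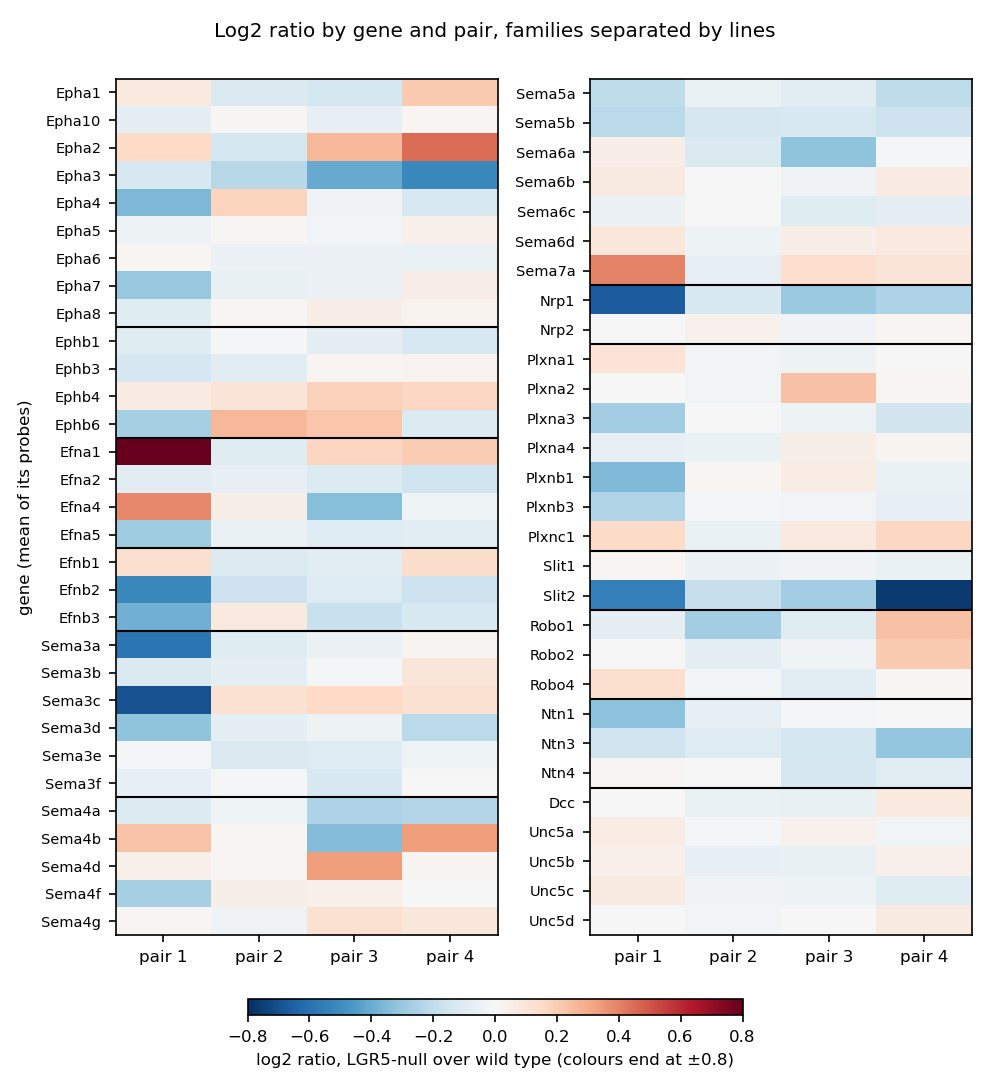
Log2 ratio of LGR5-null over wild type for the 60 guidance genes (rows, mean of the probes of a gene) in the 4 embryo pairs (columns), with blue below 0, red above 0 and lines between families. Slit2, Nrp1, Epha3 and Efnb2 are blue in every column, Ephb4 is pale red in every column, and Ephb3 stays close to white.

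Ephb3, the receptor of Paneth cell positioning, stood close to 0. Its probe, mMC010679, gave -0.086, -0.073, 0.053 and 0.008 for pairs 1 to 4 where Cy5 labelled the null ileum. Where Cy3 labelled it, the probe gave -0.18, -0.091, -0.016 and 0.052. Pairs 1 and 2 were therefore slightly below 0 and pairs 3 and 4 at or slightly above it. The mean was -0.042 ± 0.079 (SD, n = 4), with a 95% interval in limma from -0.15 to 0.066, or 0.902 to 1.05 of the wild-type level (adjusted p = 0.875). A p that misses the threshold does not show that Ephb3 was the same in null and wild-type ileum. Ephb3 also did not pass the test of differences between pairs (adjusted p = 0.250).

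Wnt target genes of the intestine, a list of 18 with Lgr5 among them and 15 measured, lay on both sides of 0. Of these, 4 were higher and 2, including Lgr5, were lower at an unadjusted p under 0.05, against 2.64% and 3.68% of all genes. In all 4 pairs 6 were above 0 and 2 below, against 1105 and 1252 of 15123 genes. In limma 0 passed over all genes. In pairs 1 to 4, Ascl2 stood at 0.24, 0.50, 0.51 and 0.70, and Rnf43, a ligase that removes Wnt receptors, at 0.49, 0.32, 0.37 and 0.40. These 2 were named as the highest of the list with 1 sign in all pairs, so it says little that Ephb3 lay below them. Of the 15 means 7 were above 0 and 8 below, with a median of -0.0063. Apart from Lgr5, Jag1, a Notch ligand, was the member furthest below 0 with 1 sign in all pairs, at -0.43 ± 0.19 (SD, n = 4).

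The other EphB receptors were also close to 0, and Ephb4 was above 0 in every pair on both of its probes. The only other member probe with that sign in all pairs was that of Sema4d. Ephb4 is the receptor of venous endothelium and binds ephrin-B2. Probe mMC002267 gave 0.11, 0.19, 0.12 and 0.058 in pairs 1 to 4, and the mean was 0.12 ± 0.055 (SD, n = 4; unadjusted p = 0.0194, limma adjusted p = 0.864). Its second probe gave 0.023, 0.009, 0.24 and 0.27 in pairs 1 to 4, with a mean of 0.14 ± 0.14. Single arrays were below 0 on both probes. They stood at -0.031 in pair 4 on mMC002267, and at -0.038 in pair 1 and -0.046 in pair 2 on the second probe. Ephb1 had the lowest mean of the EphB receptors, -0.077 ± 0.049. Ephb6, which lacks kinase activity, was uneven, with -0.26, 0.26, 0.22 and -0.11 in pairs 1 to 4.

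Efnb2, by contrast, was below 0 in every pair. It encodes ephrin-B2, the ligand of Ephb4 that marks arterial endothelium and also binds the receptors of the epithelium. Its probe gave -0.52 in pair 1 and -0.17, -0.11 and -0.16 in pairs 2 to 4, so pair 1 lay apart from the rest. The mean was -0.24 ± 0.19 (SD, n = 4), a null to wild-type fold of 0.848, with a limma adjusted p of 0.867. Without pair 1 it was -0.14. On the arrays 7 of 8 values were negative, and the exception was 0.006 in pair 3. Efnb1, the other ephrin-B of the gut epithelium, had a mean of 0.020 ± 0.13 with both signs among the pairs. Efnb3 gave -0.39, 0.081, -0.18 and -0.12 in pairs 1 to 4.

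Among EphA receptors, Epha3 was lower in each pair on both of its probes. Epha3 is a receptor of mesenchymal and neural cells that binds ephrin-A5 with high affinity. Probe mMC002917 gave -0.15, -0.35, -0.47 and -0.61 in pairs 1 to 4 and was below 0 on all 8 arrays. Its mean was -0.40 ± 0.19 (SD, n = 4), a null to wild-type fold of 0.760 (unadjusted p = 0.00430, limma adjusted p = 0.744). Probe mMA032118 gave -0.10, -0.10, -0.34 and -0.41, with a mean of -0.24 ± 0.16. On both probes pairs 3 and 4 were lower than pairs 1 and 2. Epha2, an epithelial receptor, had the highest mean of the class, at 0.18 ± 0.25, with -0.14 in pair 2 and 0.16 to 0.45 in the others. The mean of 1 Epha1 probe, -0.18, rested on a value of -1.80 on 1 array of pair 3, where the other array gave 0.14. Its 2 other probes gave 0.13 and 0.077.

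The ephrin-A ligands held both the highest mean of all members and some of the low ones. Efna1, an epithelial and endothelial ligand, gave 1.15, -0.094, 0.17 and 0.20 in pairs 1 to 4. Pair 1 was high on both arrays, at 1.27 and 1.02, and the mean was 0.36 ± 0.54 (SD, n = 4; limma adjusted p = 0.867). Without pair 1 the mean was 0.094, below the 0.19 of Epha2, so its rank among the members rested on that pair. Efna5, a ligand of Epha3, was below 0 in all pairs on probe mMR027106, at -0.28 ± 0.24, but its other probe gave 0.016. Efna2 lay between -0.16 and -0.064 in the pairs, with a mean of -0.10 ± 0.041, but its single arrays ran from -0.35 to 0.052. Efna4 had -1.96 on 1 array of pair 3 and 0.13 on the other, and so a mean of -0.079 on that probe.

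**Figure D2:**
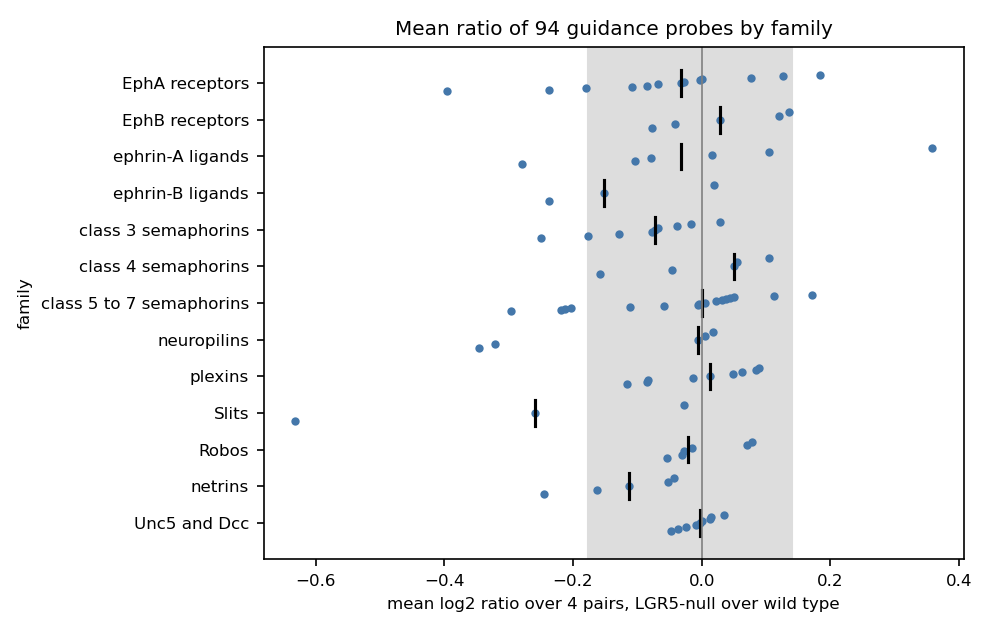
Mean log2 ratio over 4 pairs of each of the 94 guidance probes (points) by family, with the family median as a black line and the range from the 5th to the 95th percentile of all 36591 probes, -0.18 to 0.14, in grey. The 16 probes left of the band include both Nrp1 probes, both Slit2 probes and both Epha3 probes, and 3 probes lie right of it.

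Slit2 had the lowest mean of all members. It encodes a secreted ligand of the Robo receptors that repels axons and migrating cells. Probe mMR028016 gave -0.845, -0.29, -0.36 and -1.02 in pairs 1 to 4, and all 8 arrays were below 0, from -1.08 to -0.26. Pairs 1 and 4 were the lowest. The mean was -0.63 ± 0.36 (SD, n = 4), a null to wild-type fold of 0.646, with a 95% interval from -0.99 to -0.27 (unadjusted p = 0.00639, limma adjusted p = 0.785). The second probe, mMC010940, was also below 0 on all 8 arrays, with pair values of -0.25, -0.078, -0.19 and -0.51 and a mean of -0.26 ± 0.18. Both probes thus gave pair 4 as the lowest and pair 2 as the highest. Slit1, another ligand of the family, stood at -0.027 ± 0.032.

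The Robo receptors showed no common direction. Robo1, a receptor of neurons and mesenchyme, gave -0.074, -0.28, -0.098 and 0.24 in pairs 1 to 4. Robo2 gave 0.078 ± 0.18 on 1 probe and -0.028 on the other. Robo4, an endothelial member, had means between -0.030 and 0.070 on its 3 probes. Of the 6 Robo probes, 0 had the same sign in all 4 pairs.

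Nrp1 was lower in each pair on both probes, and Nrp2 was near 0 on all 3 of its probes. Neuropilins are co-receptors of class 3 semaphorins and of VEGF, and Nrp1 is known from arterial endothelium and axons. Probe mMC020762 gave -0.72, -0.11, -0.29 and -0.26 in pairs 1 to 4 and was below 0 on all 8 arrays. The mean was -0.35 ± 0.26 (SD, n = 4), a null to wild-type fold of 0.787 (unadjusted p = 0.0212, limma adjusted p = 0.864). Probe mMR001211 gave -0.61, -0.14, -0.30 and -0.23, with a mean of -0.32 ± 0.21. Both probes put the pairs in the same order, with pair 1 lowest and pair 2 highest. On mMR001211 the value moved with the dye, with means of -0.066 where the null ileum was in Cy5 and -0.58 over those in Cy3. The 3 Nrp2 probes had means from -0.0050 to 0.018.

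Class 3 semaphorins are secreted and signal through neuropilins and plexins. Of 9 probes 8 had a mean below 0, and 1 reached an unadjusted p under 0.05. That was Sema3d, at -0.45, -0.20, -0.042 and -0.31 in pairs 1 to 4 (mean -0.25 ± 0.17, SD, n = 4, limma adjusted p = 0.864). Its other probe gave -0.077. Sema3a, a ligand that acts through Nrp1, reached -0.59 in pair 1, while pairs 2 to 4 ran from -0.097 to 0.024. Sema3c gave -0.70 in pair 1 and 0.12, 0.16 and 0.12 in pairs 2 to 4, so pair 1 alone set its mean of -0.073. In that pair the median of the enteric neuron list was -0.45 and that of the enteric glia list -0.39. Other marker lists were also far from 0 there, with goblet at -1.14, fibroblast and matrix at -0.38, Paneth at 0.94 and enterocyte at 0.40. A link of any list to these ratios was not tested.

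The membrane-bound semaphorins were mixed. Sema5a and Sema5b, transmembrane semaphorins with thrombospondin repeats, were below 0 in all pairs on 1 and on both of their 2 probes. Sema5b gave -0.33, -0.16, -0.16 and -0.20 on probe mMC025503, and its other probe stood at -0.11 ± 0.014 (SD, n = 4). The single arrays of that other probe ran from -0.21 to 0.008. Sema5a gave -0.22 ± 0.12 on probe mMR028254 and -0.058 on the other. Sema6c stood at -0.20 ± 0.057 on probe mMC010623, below 0 on all 8 arrays, but its 2 other probes gave 0.044 and -0.0036. Sema4a, known from immune cells, gave -0.16 ± 0.10, with -0.0040 where the null ileum was in Cy5 and -0.31 over those in Cy3. Sema7a, which is anchored by a lipid, had the highest mean of these classes, 0.17 ± 0.17, with 0.37 in pair 1. That probe averaged 0.044 where the null ileum was in Cy5 and 0.30 over those in Cy3, and its pair 3 arrays gave -0.055 and 0.54. For 2 semaphorins 1 array largely set the mean. Sema6a, with a mean of -0.30 on probe mMC018586, had -1.69 on 1 array of pair 3 and -0.047 on the other, and Sema4d, with a mean of 0.10, had 0.74 and -0.063 there.

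Plexins, the receptors of semaphorins, lay close to 0. The 9 probes had means from -0.12 (Plxna3) to 0.089 (Plxnc1), and 0 reached an unadjusted p under 0.05. Plxnb1 reached -0.35 in pair 1, while pairs 2 to 4 ran from -0.056 to 0.061.

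All 5 netrin probes had means below 0. Netrins are secreted relatives of laminins. Ntn3 was lower in every pair, at -0.21, -0.17, -0.23 and -0.37 on probe mMC019514, which was below 0 on all 8 arrays. Its mean was -0.25 ± 0.086 (SD, n = 4), and it had, with Sema6c, the lowest adjusted p of the members (limma, 0.723). Its other probe gave -0.11. Ntn1, the ligand of Dcc and Unc5, reached -0.68 in pair 1 on 1 probe, where pairs 2 to 4 ran from -0.080 to 0.055, and -0.043 ± 0.042 on the other. Dcc stood at -0.0081, and the 9 Unc5 and Dcc probes had means between -0.047 and 0.034, with none at an unadjusted p under 0.05.

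**Figure D3:**
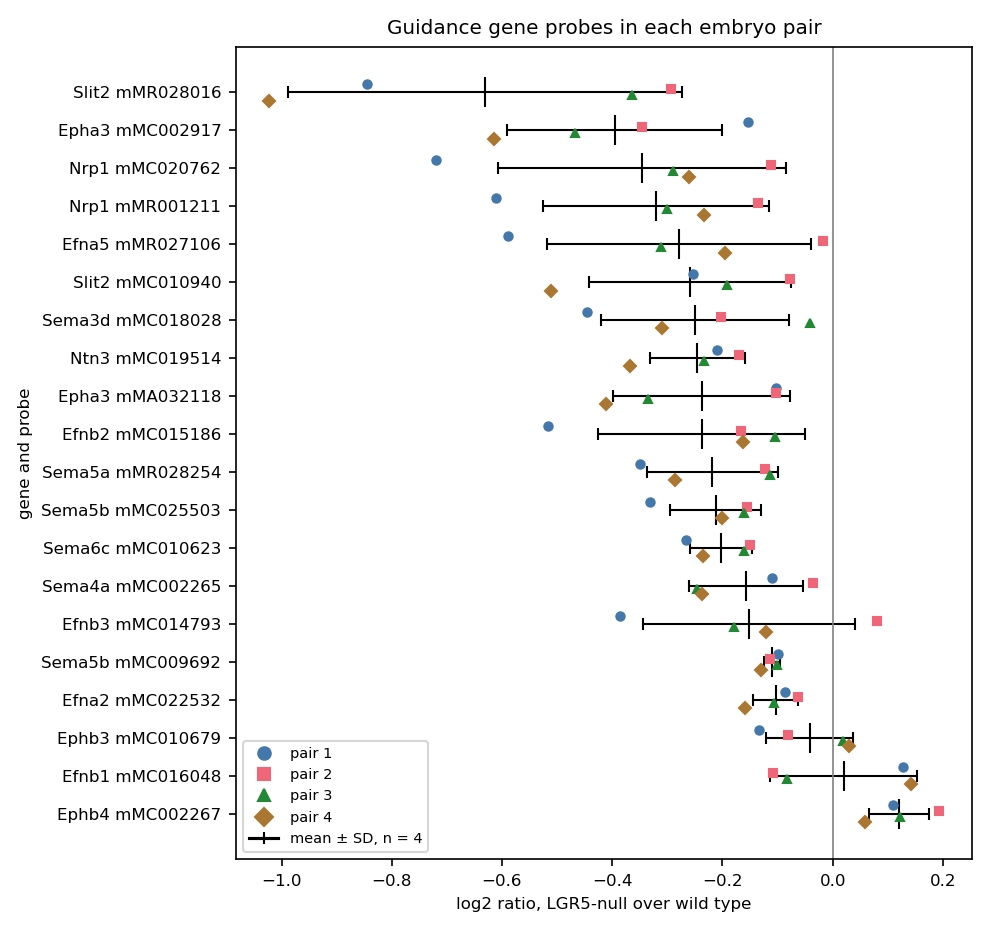
Log2 ratio of LGR5-null over wild type in each embryo pair (coloured points) for the 17 probes with an unadjusted p under 0.05 and for Ephb3, Efnb1 and Efnb3, with the mean and SD over 4 pairs in black. The 16 lower probes, picked by that p, have all points left of 0, which the choice favours. Ephb3, Efnb1 and Efnb3 have points on both sides.

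Different probes of a gene did not always give the same answer. Of 28 genes with several probes, 16 had means of 1 sign on all their probes, and in 5 the means spanned more than 0.2. Slit2 spanned the most, 0.37, with both probes below 0. The 16 lower probes were picked by p on the mean of both dye orientations, so a shared sign is largely built in. All 16 averaged below 0 in both orientations, but 7 differed by more than 1.5 times between them. Sema4a and 1 Nrp1 probe were farther from 0 where Cy3 labelled the null ileum. The other 5 were farther from 0 where Cy5 labelled it, and they were Efnb2 (-0.33 in Cy5 and -0.15 in Cy3), Slit2 mMC010940 (-0.37 and -0.14), Ntn3 mMC019514 (-0.33 and -0.17) and both Sema5b probes (-0.16 and -0.063 for mMC009692, -0.26 and -0.16 for mMC025503).

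**Figure D4:**
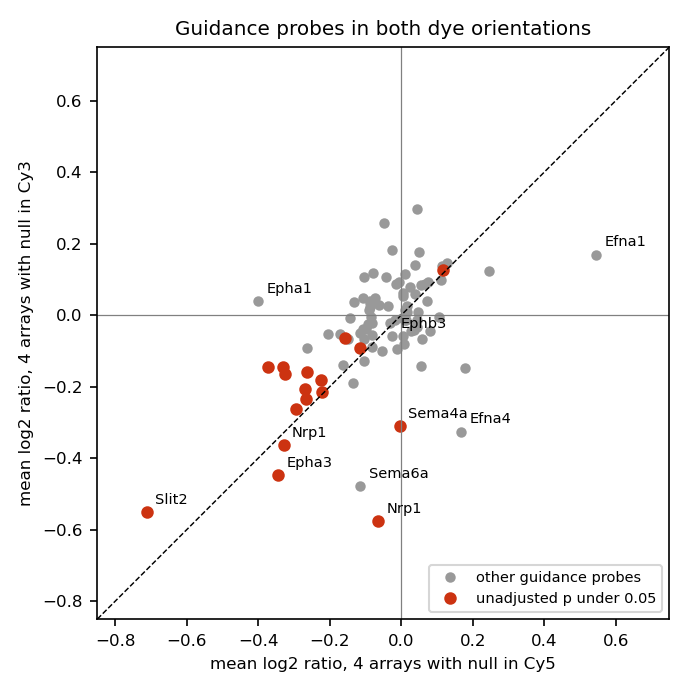
Mean log2 ratio of each guidance probe over the 4 arrays that carried null RNA in Cy5 (horizontal) and over the 4 arrays with it in Cy3 (vertical), with the line of equality dashed and probes at an unadjusted p under 0.05 in red. Nrp1 mMC020762 (-0.33 and -0.36) lies near the line and Slit2 mMR028016 (-0.71 and -0.55) above it, while Epha3 mMC002917 (-0.34 and -0.45), the other Nrp1 probe (-0.066 and -0.58) and Sema4a (-0.0040 and -0.31) lie below it.

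The 250 bases before the annotated start of Slit2, Nrp1, Epha3 and Efnb2 are shown because their ratios were below 0 in every pair, and those of Ephb3 because it stood near 0. They come from RefSeq, build GRCm38.p6, at chr5:47982905-47983154 (plus strand), chr8:128358823-128359072 (plus strand), chr16:63864176-63864425 (minus strand), chr8:8661243-8661492 (minus strand) and chr16:21204545-21204794 (plus strand). Capitals mark, on either strand, the TCF/LEF cores CTTTGA and CTTTGT, which overlap in their first letters, the TATA box TATAAA, the CCAAT box CCAAT and the GC box GGGCGG.
Slit2: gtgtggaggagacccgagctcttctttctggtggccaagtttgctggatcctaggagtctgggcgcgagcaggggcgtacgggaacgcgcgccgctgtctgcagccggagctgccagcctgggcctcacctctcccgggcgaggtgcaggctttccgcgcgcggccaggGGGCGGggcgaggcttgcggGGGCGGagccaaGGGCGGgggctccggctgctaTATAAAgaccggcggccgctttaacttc
Nrp1: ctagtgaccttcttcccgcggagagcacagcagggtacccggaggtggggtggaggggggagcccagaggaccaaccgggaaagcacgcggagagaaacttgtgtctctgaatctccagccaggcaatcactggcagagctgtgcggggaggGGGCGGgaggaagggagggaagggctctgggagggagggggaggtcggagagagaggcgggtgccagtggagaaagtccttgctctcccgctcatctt
Epha3: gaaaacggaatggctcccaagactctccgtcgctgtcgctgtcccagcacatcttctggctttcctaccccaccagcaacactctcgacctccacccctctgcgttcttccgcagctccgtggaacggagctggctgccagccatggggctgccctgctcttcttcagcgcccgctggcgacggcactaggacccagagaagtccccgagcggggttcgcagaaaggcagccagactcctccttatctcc
Efnb2: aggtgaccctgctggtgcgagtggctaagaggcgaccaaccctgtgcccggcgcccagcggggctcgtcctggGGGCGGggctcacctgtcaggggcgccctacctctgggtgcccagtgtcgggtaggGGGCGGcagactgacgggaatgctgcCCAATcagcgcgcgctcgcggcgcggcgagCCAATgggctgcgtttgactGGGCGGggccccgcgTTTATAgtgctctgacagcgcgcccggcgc
Ephb3: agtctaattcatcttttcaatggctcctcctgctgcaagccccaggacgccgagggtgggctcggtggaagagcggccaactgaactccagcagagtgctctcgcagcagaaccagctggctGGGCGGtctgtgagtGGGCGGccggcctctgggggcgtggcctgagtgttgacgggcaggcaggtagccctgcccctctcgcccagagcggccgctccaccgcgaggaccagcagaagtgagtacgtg

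In these stretches the GC box was found 3 times before Slit2, 3 times before Efnb2, 2 times before Ephb3 and 1 time before Nrp1. Slit2 had a TATA box 28 bases and Efnb2 one 30 bases before the start, which in Efnb2 was on the opposite strand. Efnb2 also had 2 CCAAT boxes. None of the searched letters stood before Epha3, and neither TCF/LEF core stood in any of the 5 stretches. Of 32851 stretches of the same length in the table, 32.7% held the GC box, 33.8% the CCAAT box, 12.4% the TATA box, 13.8% CTTTGA and 16.5% CTTTGT. Of 63 stretches of 50 members, 68.3% held the GC box, 30.2% the CCAAT box, 3.17% the TATA box, 6.35% CTTTGA and 11.1% CTTTGT. A match describes letters and is no evidence of a bound site.

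Differences between embryo pairs were common among the members. By limma's moderated F-test on 8 arrays, 30 of 94 probes (31.9%) differed between pairs at an adjusted p under 0.05, against 22.9% of all probes. The error of this test is that between 2 arrays of a pair, so it says nothing on genotype. Pair 1 was the farthest from the mean in 16 of the 30, a share that was not counted over all probes. Without pair 1 the count of members was 5, and without pair 2 it was 13. Over all 36591 probes the count fell likewise, from 8384 to 1564 without pair 1 and to 5293 without pair 2. Among these 30, the widest ranges were those of Efna1 (-0.094 to 1.15), Sema3c (-0.70 to 0.16), Ntn1 (-0.68 to 0.055), Slit2 (-1.02 to -0.29), Sema4b (-0.35 to 0.33) and Sema3a (-0.59 to 0.024). In Slit2, Nrp1 and Epha3 all pairs were below 0 and differed in size, while in Efna1, Sema3c and Sema4b the pairs differed in sign.

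Genes that work with the guidance families were also counted. Of 23 measured co-receptors and other ligands, 19 had a mean below 0, and 3 were lower and 0 higher at an unadjusted p under 0.05. Over all genes 50% had a mean below 0, and 3.68% were lower and 2.64% higher at that level, which holds for the next lists too. Flrt2, a membrane ligand of Unc5 receptors, gave -0.46, -0.22, -0.44 and -0.57 in pairs 1 to 4, and Flrt3 gave -0.33 ± 0.28 (SD, n = 4). Of 43 signal transducers 23 were below 0, with 1 higher and 1 lower at that level. Vav3, a signalling protein that acts below Eph receptors, stood at 0.22 ± 0.057 and was above 0 in every pair. Limk1, the kinase of cofilin, stood at -0.22 ± 0.11. Of 10 proteases and phosphatases of the Eph system 7 were below 0, and 2 were lower at that level. Mmp2, a matrix metalloproteinase, gave -0.26 ± 0.10 and Ptpn13, a phosphatase that acts on ephrin-B, -0.13 ± 0.088. None of these genes passed over all genes in limma.

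Marker lists of several cell types also lay below 0. In bulk tissue, fewer cells of a type and less RNA per cell cannot be told apart. All 14 fibroblast and matrix genes averaged under 0, and 11 did so in every pair, where 50% of all genes averaged under 0 and 8.28% were below 0 in all pairs. The list's median was -0.38, -0.18, -0.15 and -0.43 in pairs 1 to 4. Pairs 1 and 4 were the lowest there, as they were for both Slit2 probes. The goblet list was also lowest in pairs 1 and 4, with medians of -1.14, -0.046, 0.095 and -0.40 in pairs 1 to 4. Of 15 endothelial genes 14 averaged under 0, and 7 did so in every pair, with medians of -0.063, -0.21, -0.12 and -0.10. Nrp1 and Efnb2 were lowest in pair 1, where the medians of the endothelial, fibroblast and matrix, and enteric neuron lists were -0.063, -0.38 and -0.45. Of 17 enteric neuron genes 16 had a mean below 0 but 0 had 1 sign in all pairs, with medians of -0.45, 0.0017, -0.015 and 0.044. The enteric glia list, with 4 genes measured, had medians of -0.39, -0.099, -0.019 and -0.012. The smooth muscle and cell cycle lists had medians over genes of 0.0073 and 0.096, and the mesothelial list -0.031. Paneth, goblet, enterocyte and leukocyte lists had medians of 0.36, -0.35, 0.077 and 0.14. Whether any of these lists had a part in the guidance ratios was not tested.

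**Figure D5:**
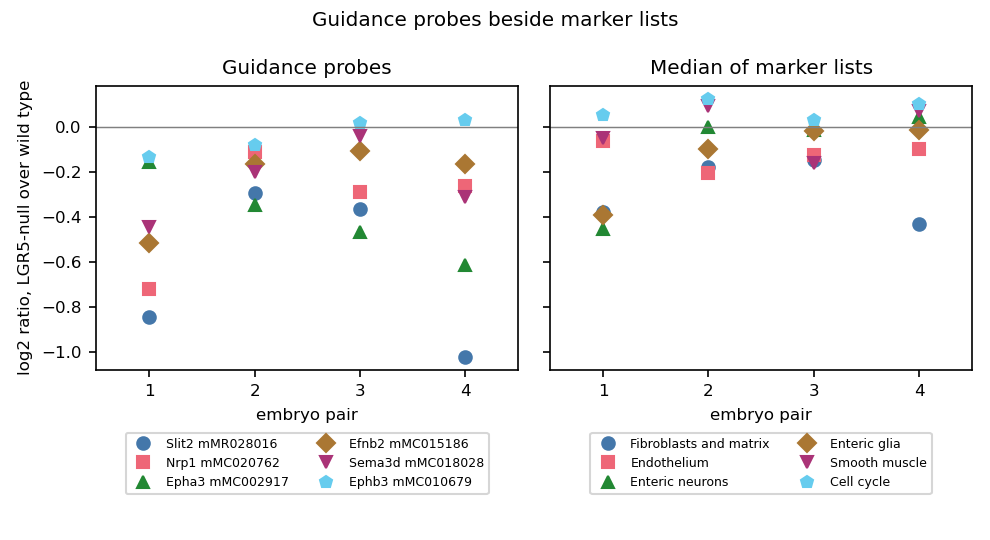
Log2 ratio of LGR5-null over wild type in each embryo pair for 6 guidance probes (left) and median log2 ratio of 6 marker lists (right). Slit2 and the fibroblast and matrix list are lowest in pairs 1 and 4, Epha3 is lowest in pair 4, and the enteric neuron and glia lists are low in pair 1. The goblet list, not drawn here, was also lowest in pairs 1 and 4.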

How the data were processed

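The series holds 8 MEEBO arrays with both dyes, 4 pairs of an LGR5-null and a wild-type embryo ileum, each with the dyes exchanged. Amplified antisense RNA was labelled with Cy5 or Cy3, per the labels' protocols. The authors deposited a log ratio per probe and array, read here as log2. Their base, numerator, background correction and normalization are not stated in the labels or headers, and depth has no meaning for arrays, whose number limits the precision.

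Since both arrays of each pair correlated positively, no sign was flipped, and Lgr5 gave the likely direction. Members came from the platform annotation, and all 94 probes matched the RefSeq gene table by gene ID with 0 symbols differing. Of 38467 probes, 36591 were tested. The other 1876 belong to 4 identifier classes with no named gene. Arrays of a pair were averaged and set against 0 by limma 3.58.1 under R 4.3.3 (eBayes, 2-sided, Benjamini-Hochberg over all tested probes). Differences between pairs used an F-test with a dye term. With 4 pairs, the smallest p of an exact sign-flip test is 0.125. In simulated ratios, limma with adjustment recovered 14 of 50 changes of 0.3 in log2 and 49 of 50 changes of 1. In the real data the deleted gene, Lgr5, did not pass, with a mean of -1.59 (limma on gene means, adjusted p = 0.656). The simulated counts therefore do not tell what these 4 pairs could detect.

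Named were Ephb3 and the ephrin-B genes, members at an unadjusted p under 0.05 or of 1 sign in all pairs and a mean beyond 0.2, the highest and lowest of each family, the 6 largest ranges between pairs, and up to 2 genes each way from each pathway list. Epha1, Efna4, Ephb6, Robo4, Plxnb1, Dcc and Nrp2 as a whole, and second probes, were added after their values were seen. Members and lists were chosen with earlier results of these data known. Alternatives were a random block for the pair, gene means, single dye orientations, scaled arrays, all probes, an ordinary test and leaving out pairs. The labels name separate biological replicas, but some pairs have parents in common, so p-values may overstate their independence.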

Additional observations from a re-analysis of the deposited data

Results flagged for a closer look

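A pair was singled out where its gap to the nearest other pair took up more than 0.829 of the range of the 4, Dixon's 95% critical value. Among 55 items, the named probes, the family medians and the median of all members, this held for 4. The rate behind that critical value would give about 2.75 for items chosen without regard to their values. Many probes were named from these same pair values, Sema3c for its range, so 4 cannot be set against 2.75. Sema3c stood at -0.70 in pair 1, against 0.12 to 0.16 in the others. Efnb2 stood at -0.52 in pair 1, against -0.17 to -0.11, and the median of the ephrin-B ligands at -0.39 in that pair, against -0.12 to -0.11. The 2 items overlap, since Efnb2 is 1 of the 3 ephrin-B probes. Sema4d stood at 0.34 in pair 3, against 0.016 to 0.043, and that value came from 1 of the 2 arrays.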

How the results depend on the processing

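No guidance probe passed the adjusted threshold under any setting run, and over all probes the count stayed at 0 except for 84 when pair was a random block over 8 arrays, which counts arrays of a pair as partly independent. There the lowest adjusted p among the members were 0.0530 for Epha3 and 0.0576 for Slit2. The 17 members at an unadjusted p under 0.05 became 9 with an ordinary test and 10 with pairs 2 and 4 alone, a setting chosen after seeing the data. They ran from 11 (without pair 3) to 18 when 1 pair was left out. Over all probes the 2003 at that level became 1830 with an ordinary test and 1630 with pairs 2 and 4 alone. They ran from 1234 (without pair 4) to 2452 (without pair 2) when 1 pair was left out. The 30 members that differed between pairs became 19 without the dye term and ran from 5 to 34 when 1 pair was left out. Over all probes the 8384 became 5019 and ran from 1564 to 8928. The members' median moved by less than its spread between pairs, between -0.039 and -0.014. Of 492 values of the 41 named probes under alternatives, 21 had the opposite sign, among them Sema3c (0.14) and Ntn1 (0.0077) without pair 1. No intensities were available, so no filter on dim probes was run.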
